A study of Mus musculus with 2 samples.

Results

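The miR-135 family of the mouse consists of 3 microRNA (miRNA) genes, Mir135b, Mir135a-2 and Mir135a-1, and all 3 were measured here in the hindbrain of newborn mice. The members were chosen by gene name, with the levels of these same libraries already known, so their levels and the ratios between them are described without a test. They are 3 of the 1973 miRNA genes with an entry in the count tables. MicroRNA-seq, which sequences small RNAs of under 30 nucleotides, was done on total RNA from single hindbrains of 2 pups of strain B6NCrl at 0 days after birth. The pups, named pup 1 and pup 3 in the labels, are replicates 1 and 2 of 1 group, with no treatment and no genetic change named. The labels give both pups 1 donor identifier and record no sex. With 1 group there is no contrast between conditions, and any p-value below compares 2 libraries by counting error alone.

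A miRNA gene is transcribed as part of a longer RNA, and its hairpin precursor is cut into a 5p and a 3p arm. An arm that enters an Argonaute protein pairs with messenger RNAs mainly through its seed, bases 2 to 8, and lowers their output. miR-135 is a brain miRNA. In mouse serotonin neurons of the raphe, which lies in the brainstem, it represses the serotonin transporter Slc6a4 and the receptor Htr1a, and in neurons it promotes axon growth by repressing Klf4. In human colorectal cancer cells it represses APC, a brake of Wnt signalling.

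The sequences are shown first because they set which reads of each gene could be counted at all. The precursors, from the RefSeq miRNA table on GRCm38.p6, are printed 5′ to 3′ with capitals for the 5p stretch that equals or best matches miR-135a-5p. Mir135b (ENSMUSG00000065435.1) is at chr1:132198088-132198184 on the plus strand, Mir135a-2 (ENSMUSG00000065524.1) at chr10:92072086-92072185 on the minus strand, and Mir135a-1 (ENSMUSG00000065407.1) at chr9:106154124-106154213 on the plus strand.
Mir135b: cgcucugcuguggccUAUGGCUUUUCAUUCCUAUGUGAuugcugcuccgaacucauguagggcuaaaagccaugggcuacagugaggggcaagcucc
Mir135a-2: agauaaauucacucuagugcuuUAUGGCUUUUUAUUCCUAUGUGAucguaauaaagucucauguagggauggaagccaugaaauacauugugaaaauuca
Mir135a-1: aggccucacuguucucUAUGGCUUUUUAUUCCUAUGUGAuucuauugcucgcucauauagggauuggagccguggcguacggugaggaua

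The mature sequences show why the 2 Mir135a genes are hard to tell apart and Mir135b is not. Capitals mark the seed here.
miR-135a-5p: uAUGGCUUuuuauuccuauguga
Mir135b stretch aligned with miR-135a-5p: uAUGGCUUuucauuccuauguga
miR-135b-3p: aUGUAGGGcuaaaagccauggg
miR-135a-2-3p: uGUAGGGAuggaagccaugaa
miR-135a-1-3p: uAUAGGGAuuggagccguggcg

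On the 5p arm, Mir135a-2 and Mir135a-1 carry the same 23 bases, so miR-135a-5p is 1 sequence from 2 genes. The Mir135b precursor matches those 23 bases at all positions but 1, the substitution U11C, counted from 1 at the 5′ end of miR-135a-5p with its base first. That position lies outside the seed, so the aligned 5p stretches of the 3 genes have the same seed. The 5p stretch of Mir135b is given from that alignment. On the 3p arm the 3 genes have 3 different seeds. None of these 3p seeds, and not the 5p seed either, occurred in a mature sequence from a gene outside the family among the 1679 mature names of the table.

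The identity of the Mir135a copies stopped at the 5p arm. Their longest identical stretch was 24 bases, which covers miR-135a-5p and 1 further base, and their precursors were identical at 67.0% of aligned positions. Of the 22-base windows of the precursors, 3 of 79 in Mir135a-2 and 3 of 69 in Mir135a-1 were common to both genes. At a read length of 18 bases 7 windows were common, and from 25 bases on none was. Mir135b shared no 22-base window with another precursor of the table, and its longest stretch in common was 14 bases with Mir135a-1 and 13 with Mir135a-2. A search of 141767 annotated transcripts found miR-135a-5p in the 2 Mir135a genes and each 3p sequence in its own gene alone. The 5p stretch of Mir135b was not part of that search, and the whole genome was not searched. The tables assign reads at several genomic places to no gene, so an exact miR-135a-5p read counts for neither copy. The counts of Mir135a-2 and Mir135a-1 below are therefore those of reads that differ between them, such as the 3p arms or longer 5p forms. They are not the level of miR-135a-5p, which was not analysed here.

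**Figure D1:**
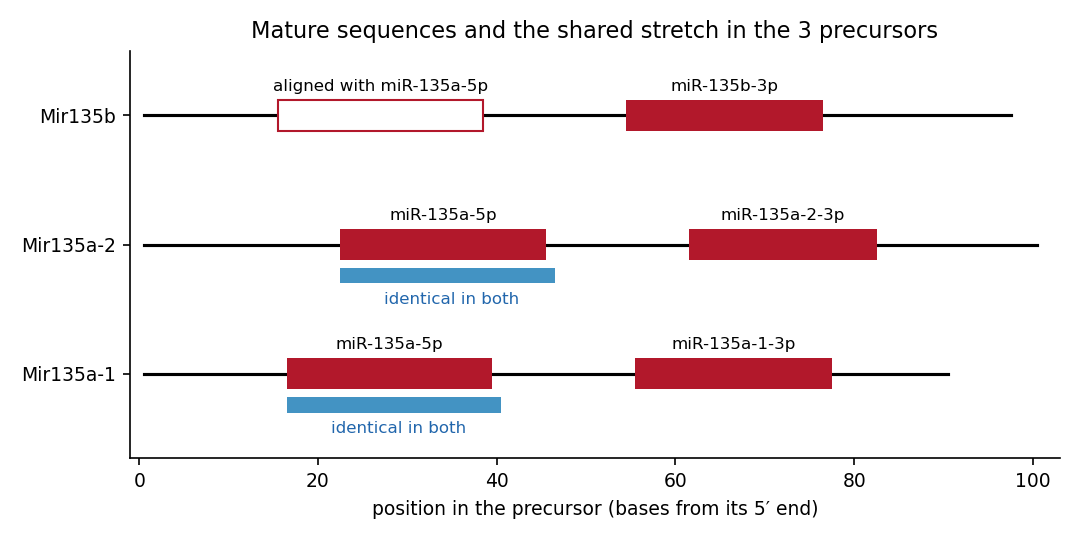
Position of the mature sequences in the 3 precursors, in bases from the 5′ end of each. Filled bars are mature sequences of the RefSeq table, the open bar is the Mir135b stretch aligned with miR-135a-5p, and the blue bars mark the 24 bases that Mir135a-2 and Mir135a-1 have in common.

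Mir135b lay in an intron of the protein-coding gene Lemd1, 6657 bases from its start and on its strand, and also in an intron of AC124108.1, which overlaps Lemd1. Mir135a-2 lay in the last part of Rmst, a long noncoding RNA known in neural development, in an intron 1049 bases from its end. Mir135a-1 lay in an intron of the noncoding gene D030055H07Rik on its own strand. It also lay within an untranslated region of Glyctk, the glycerate kinase gene, on the opposite strand. The tables cover miRNA genes, and the levels of the host genes were not analysed here. No member had a read on the opposite strand in either pup, so reads from the Glyctk strand did not enter. At 3 counts per library, the limit that a count of 0 allows was 0.611 CPM in pup 1, against 0.481 CPM in pup 3. CPM are own-strand counts per 1000000 own-strand counts of all miRNA genes of a library.

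Mir135b was by far the most counted member and one of the leading miRNA genes by unique counts. It had 48209 counts in pup 1 and 65840 in pup 3, of 4906127 and 6238680 own-strand miRNA gene counts. Its level was 9826 CPM in pup 1 (exact binomial 95% interval 9739 to 9914) and 10553.5 CPM in pup 3 (10473.5 to 10634). This gave 10189.9 ± 514 CPM (SD, n = 2 pups), or 1.02% ± 0.0514 of the counts. The gene ranked 25 in pup 1 and 18 in pup 3 among the 1973 genes. Genes with identical copies lose their shared reads in these counts, so the ranks are not an order of mature miRNAs. Mir135b stood 57.2-fold above the median detected gene, where detection means 2 CPM in both pups and was met by 407 genes. In tissue of many cell types, a lower level can be fewer cells of a type or less RNA per cell, and these cannot be told apart. The intervals cover counting error only and take each read as 1 molecule.

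Mir135a-2 and Mir135a-1 had middling unique counts. Mir135a-2 had 906 counts in pup 1 and 1083 in pup 3, or 185 CPM (interval 173 to 197) and 174 CPM (163 to 184), with a mean of 179 ± 7.83 CPM (SD, n = 2 pups). Mir135a-1 had 860 counts in pup 1 and 892 in pup 3, or 175 CPM (164 to 187) and 143 CPM (134 to 153), with a mean of 159 ± 22.8 CPM. Over the pups the ranges of the 2 copies overlapped, since the lower value of Mir135a-2 was below the higher value of Mir135a-1. The median detected gene had 178 CPM, so both copies lay close to it, at mean ranks 201 and 210.

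Mir135b exceeded each Mir135a copy more than 50-fold in both pups. Its counts were 56.1 times those of Mir135a-1 in pup 1 (exact 95% interval for counting error 52.4 to 60.0) and 73.8 times in pup 3 (69.1 to 78.9). Against Mir135a-2 the ratio was 53.2 in pup 1 (49.8 to 56.9) and 60.8 in pup 3 (57.2 to 64.6). For both copies the intervals of the pups did not overlap, and the higher ratio was in pup 3. Per base of precursor, with lengths of 97, 100 and 90 bases for Mir135b, Mir135a-2 and Mir135a-1, the ratio to Mir135a-1 was 52.0 in pup 1 and 68.5 in pup 3. The per-base ratio to Mir135a-2 was 54.9 in pup 1 and 62.7 in pup 3. Mir135b made up 96.5% of the family's counts in pup 1 (96.3 to 96.6) and 97.1% in pup 3 (96.96 to 97.2). These ratios compare all reads of Mir135b with the unique reads of the copies alone. How far the reads at several places, 37.9% of the reads in the table of pup 1 and 39.4% in that of pup 3, would change them was not tested.

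**Figure D2:**
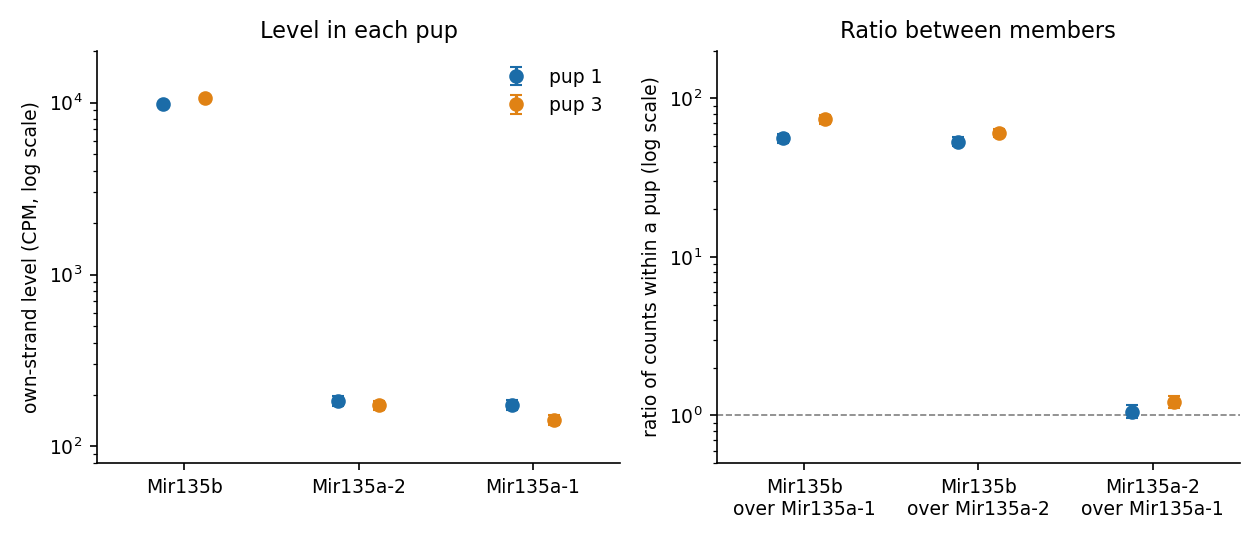
Left, own-strand level of each gene in CPM on a log axis. Right, ratio of counts between members within a pup on a log axis. Points are pups (blue, pup 1; orange, pup 3) and bars exact 95% intervals of counting error. Mir135b lies at 9826 CPM in pup 1 and 10553.5 in pup 3, both copies lie between 143 and 185 CPM, and their own ratio lies close to 1 (dashed line).

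The 2 copies were nearly even in unique counts. The ratio of Mir135a-2 to Mir135a-1 was 1.05 in pup 1 (exact 95% interval 0.959 to 1.16) and 1.21 in pup 3 (1.11 to 1.33). In pup 1 the interval includes 1, and in pup 3 it does not. Per base of precursor the ratio was 0.948 in pup 1 and 1.09 in pup 3, so the order of the copies in pup 1 changed with that choice. Mir135a-2 carries 33.0% G and C in its precursor, against 46.7% in Mir135a-1, so the near-even counts came from precursors of unlike composition.

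Few other pairs of miRNA genes with a mature sequence in common had unique counts as even. For every pair, reads of the shared mature sequence are left out, so the ratios do not compare the full output of the copies. In the RefSeq table, 30 pairs of genes with an entry shared a mature sequence that no other gene had, and in 19 pairs both genes were detected. All 19 shared 1 arm. The geometric mean of the larger over the smaller copy was 1.13 for the Mir135a pair, against a median of 3.69 over the 19 pairs and a range of 1.01 to 68.0. By this mean over the pups, the pair Mir125b-1 and Mir125b-2 was the only one closer to 1. In pup 3 alone, Mir450-2 over Mir450-1 (named after its values were seen) was closer as well. Its ratio was 1.03 in pup 3, against 1.47 in pup 1. Of the 4 pairs with the highest summed level, Mir128-1 exceeded Mir128-2 by 2.26 times in pup 1 and 2.08 times in pup 3. Mir125b-1 over Mir125b-2 was 0.980 in pup 1 and 1.03 in pup 3. Mir181a-1 exceeded Mir181a-2 by 30.4 and 53.2 times, and Mir129-2 exceeded Mir129-1 by 4.55 and 4.31 times in the same pups. Between pups the Mir135a log2 ratio moved by 0.20, close to the median movement of 0.19, and 11 of the 19 pairs moved less. The table is not complete and Mirlet7c-2 is in 2 of the pairs, so these are descriptions of the pairs found.

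**Figure D3:**
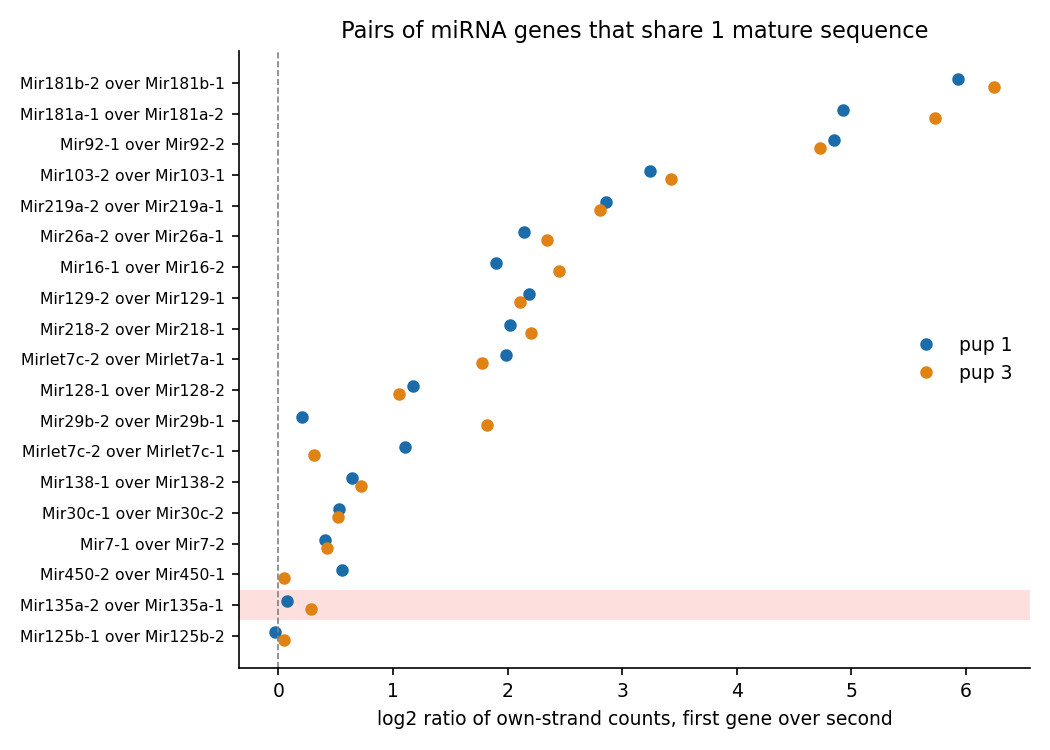
Log2 ratio of own-strand counts between the genes of the 19 detected pairs that share 1 mature sequence, first-named gene over second, in pup 1 (blue) and pup 3 (orange). The shaded Mir135a pair lies near 0 (equal counts), at 0.08 in pup 1 and 0.28 in pup 3, and in 4 pairs the geometric mean over the pups exceeds 10-fold.

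In unique counts, a single-copy relative outnumbered a pair of copies in the other families of the same layout as well. Among detected pairs with exactly 1 further detected gene of the same seed there were, besides miR-135, the miR-26, miR-103 and miR-7 families (chosen after their values were seen). Mir135b had 27.3 times the summed counts of its pair in pup 1 and 33.3 times in pup 3. Mir26b had 183 and 314 times those of Mir26a-2 and Mir26a-1 in pup 1 and pup 3. Mir107 had 32.1 and 116 times those of Mir103-2 and Mir103-1. Mir7b had 3.01 and 2.17 times those of Mir7-1 and Mir7-2. In all 4 families the gene without an identical copy had the higher count in both pups, and that of miR-135 was neither the largest nor the smallest ratio. The counts of each pair leave out reads of its shared mature sequence, which the gene without an identical copy does not carry. Whether shorter reads of that gene also match its pair was checked for Mir135b alone. Mir135b shared 0 windows of 18 bases with either Mir135a copy. The counting thus lowers each pair, and these ratios do not compare mature RNAs. The size of the part that discarded reads have in them was not tested.

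Mir135b stood high and the copies low beside a list of 28 counted neuronal miRNA genes that does not contain the family. Against 407 of all 1973 genes, 25 of the 28 were detected. The median over all genes was 0 CPM, against 732 CPM over the 28. Mir135b exceeded all but 3 of them in each pup, namely Mir149 at 14438 ± 3020 CPM, Mir137 at 11351 ± 16.5 CPM and Mir181c at 11025 ± 6.04 CPM (SD, n = 2 pups). Next after it came Mir129-2 at 3695 ± 381 CPM. Mir137 is known to affect proliferation of neural progenitors. Mir135a-2 was below 21 of the 28 in pup 1 and 20 in pup 3, and Mir135a-1 was below 22 in both. The list also includes genes with near-identical copies, whose counts leave out shared reads in the same way.

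**Figure D4:**
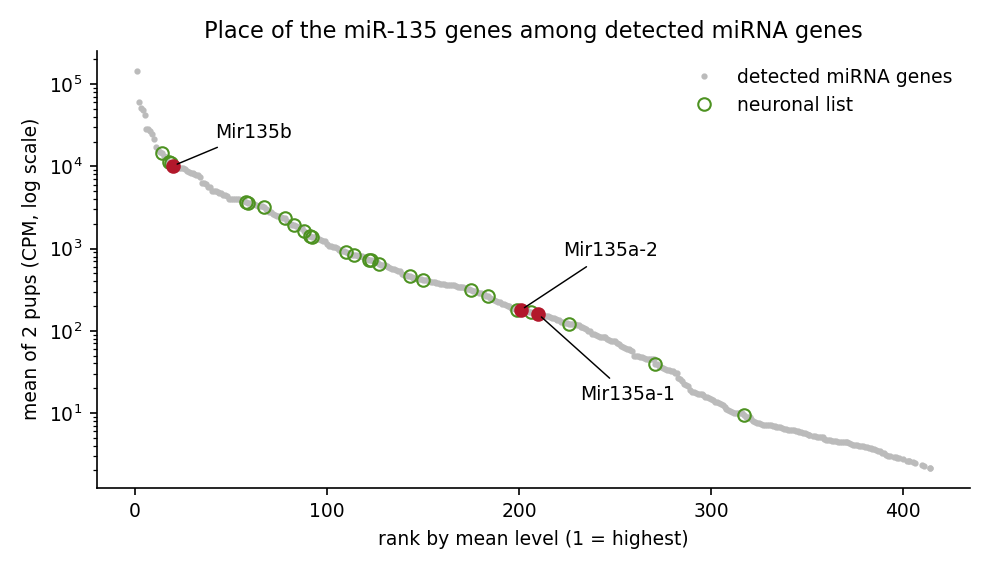
Mean level of the 407 detected miRNA genes in CPM on a log axis, by rank over all genes. Red points are the 3 members, at ranks 20, 201 and 210, and green circles the 25 detected genes of the neuronal list, 3 of which lie above Mir135b.

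By level in both pups, the genes most like Mir135b were Mir382, Mir181c, Mir137 and Mir434, at log2 distances of 0.10, 0.18, 0.23 and 0.24 over the 2 libraries. Mir382 and Mir434 belong to the imprinted Dlk1-Dio3 region. Mir135a-2 was nearest to Mir326 (0.07), Mir873a (0.12), Mir214 (0.13) and Mir363 (0.16). Mir135a-1 was nearest to Mir1224 (0.07), Mir412 (0.10), Mir206 (0.13) and Mir218-2 (0.14). With 2 libraries of 1 tissue, such likeness is one of level only.

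The genomic neighbours of the copies had higher counts than the copies did. Mirlet7g, on the same strand 24.6 kb from Mir135a-1, was the only other counted miRNA gene within 50 kb of a member. Its level was 55827 CPM in pup 1, against 65360 CPM in pup 3, which was 318 and 457 times the unique counts of Mir135a-1. Mir1251 lies in Rmst with Mir135a-2, 64955 bases away and outside that window, and is named for the shared host, after its values were seen. It had 1632 counts (333 CPM) in pup 1 and 2400 counts (385 CPM) in pup 3, which was 1.80 and 2.22 times those of Mir135a-2. The 2 miRNA genes of Rmst thus had counts of the same order, although those of Mir135a-2 leave out miR-135a-5p.

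The precursors also differed in predicted folding. The minimum free energy was -48.7 kcal/mol for Mir135b, -34.5 kcal/mol for Mir135a-2 and -43.5 kcal/mol for Mir135a-1. Per base, 15.6% of the 1005 hairpins of the RefSeq table were predicted to be more stable than Mir135b, 73.4% more stable than Mir135a-2 and 19.6% more stable than Mir135a-1. G and C made up 53.6% of the Mir135b precursor, against a median of 51.7%, and 2.19% of hairpins had less than that of Mir135a-2.

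The pups differed little in any member. The log2 difference of pup 1 over pup 3, scaled by TMM with a pseudocount of 1 CPM, was -0.24 for Mir135b with a counting error (SE) of 0.01. It was -0.05 for Mir135a-2 (SE 0.06) and 0.16 for Mir135a-1 (SE 0.07). With this scaling, the median size of that difference over detected genes was 0.28, larger than for any member. An exact binomial test per gene, two-sided and Benjamini-Hochberg adjusted over 508 genes, gave an adjusted p of 9.95e-167 for Mir135b. The same exact test gave an adjusted p of 0.619 for Mir135a-2 and 0.0445 for Mir135a-1. At an adjusted p under 0.05, 2 of the 3 members passed, while 48.2% of all tested genes did. None of the 3 passed with a difference of at least 2-fold, as 6.69% of all tested genes did. These p-values hold no spread between animals.

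The direction of the small difference in Mir135a-2 depended on scaling. On library totals, the scale of the CPM, Mir135a-2 was higher in pup 1, with a log2 difference of 0.09 (exact binomial test, adjusted p = 0.263). Library totals moved the log2 difference of each member up by about 0.13 against TMM. Mir135a-1 was higher in pup 1 under each scaling, at 0.29 on library totals, but with DESeq2 size factors it was no longer past the threshold, at 0.06 (exact binomial test, adjusted p = 0.487). For Mir135b, pup 1 was lower with TMM, library totals and DESeq2 size factors, between -0.33 and -0.10. Scaling also changed how the members stood beside the median size of 0.28 found with TMM. Mir135b with DESeq2 size factors (-0.33) and Mir135a-1 on library totals (0.29) were larger in size than that. The median size was not calculated with those scalings. As a spread over pups, the coefficient of variation of the CPM was 5.05% for Mir135b, 4.37% for Mir135a-2 and 14.4% for Mir135a-1, against a median of 14.1% over detected genes.

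The tissue was checked against markers of hindbrain and of other cells. Of 6 Hox cluster genes, which mark hindbrain and spinal cord, 5 were detected, against 407 of all 1973 genes. Their mean levels ran from 0.262 CPM to the 28396 ± 5365 CPM of Mir10a, with a median of 192 CPM. The sum of the 6 was 5.26% of counts in pup 1 and 3.50% in pup 3. All 3 genes of each of the glial, vessel, erythroid, leukocyte and epithelial lists were detected. Their sums in pup 1 and pup 3 were 0.178% and 0.165% for glia, 5.53% and 6.55% for vessel, and 0.0498% and 0.0308% for erythroid cells. For leukocytes they were 0.0842% and 0.0597%, and for epithelium 0.0700% and 0.0900%. Mir122 of liver had 44.9 ± 0.399 CPM. Of 4 counted muscle genes, Mir1a-1, Mir133a-1 and Mir133a-2 had 0 counts in both pups, and Mir206 had 164 ± 11.1 CPM. Reads common to gene copies count for no gene, so 0 counts in numbered copies do not show that muscle RNA was absent. Neuronal genes summed to 6.58% in pup 1 and 5.79% in pup 3. The neuronal list holds several genes with copies that share a mature sequence, and their counts leave out the shared reads. The sums of the lists therefore do not compare amounts of cells. The part of these cell types in the levels of the miR-135 genes was not tested.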

How the data were processed

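For each library the authors deposited raw counts of reads by miRNA gene, as whole numbers, neither normalized nor pooled, on mm10 with annotation M4 per the deposited text files. The aligner is not given in the sources used here, nor is the counter. The columns hold any-strand, own-strand and opposite-strand counts, and the own-strand counts were used. Reads unmapped (17.7% in pup 1, 13.9% in pup 3), at several places (37.9%, 39.4%) or in no feature (2.66%, 1.59%) name no gene and stayed out of totals and tests. Counting per gene does not separate the arms of a precursor, and small RNA libraries in general capture some sequences better than others, which bears on levels compared between genes.

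Gene IDs were matched without version to GENCODE M21 (GRCm38, 1894 of 1973). Host genes contain a member on its strand. Sequences came from RefSeq, where all 3 members matched, and were folded with RNAfold 2.7.2. Intervals are exact Clopper-Pearson at 95%. The pups were compared with an exact binomial test against the ratio of effective library sizes, pup 3 over pup 1 (1.16 with edgeR 4.0.16 TMM, 1.09 with DESeq2 1.42.0, 1.27 for totals), on genes with 10 or more counts. The test was checked only on counts simulated with counting error alone, so that check says nothing of spread between animals. edgeR and DESeq2 gave size factors alone, since 1 library a side allows no count model.

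The members, lists (neuronal, Hox cluster, glia, vessel, erythroid, muscle, liver, leukocyte and epithelium) and tests were chosen with earlier results of these data known. Named genes are the members, miRNA genes within 50 kb, the 4 nearest in level, the 4 leading neuronal genes and the 4 leading pairs. Exceptions are stated.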

Additional observations from a re-analysis of the deposited data

How the results depend on the processing

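Alternatives not named here kept a level or ratio within 1 SD over the pups, a difference on its side of 0 and of the threshold, and a count within 1.5 times. With all reads of the tables as denominator, mean levels were 4287 CPM for Mir135b, 75.2 CPM for Mir135a-2 and 66.6 CPM for Mir135a-1, since miRNA gene counts are 40.5% of reads in pup 1 and 43.6% in pup 3. The Mir135a-2 difference, pup 1 over pup 3, reversed to 0.089 on library totals. The Mir135a-1 difference missed the threshold at 0.065 with DESeq2 size factors, 0.15 with any-strand reads and 0.16 with genes of 1 or more counts tested, with adjusted p from 6.31e-05 to 0.487 in the exact binomial test over its alternatives. The number of genes called between pups at 2-fold was 34, against 18 when genes of 100 or more counts were tested, and no member was among the calls in any of these settings. Leaving out either pup leaves the single values of the other, which are given above for each level and ratio and say nothing of stability. For the difference between pups it was not possible, since each pup is 1 side. Per-base ratios were added after seeing the data. No paired analysis was possible because there is 1 group. At 860 to 1083 counts, the copies are known to within about the intervals given, and Mir135b more closely. The cause of these changes was not tested.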

Other observations

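There were 13 detected pairs of genes with a mature sequence in common and at least 1 further detected gene of the same seed. Seeds came from the mature sequences of the RefSeq table, which is not complete, so further genes can be missing. Mir135b alone was added from its alignment. Each pair held less than 50% of the counts of the detected genes with its seed on average over the pups. The counts of a pair leave out reads of the mature sequence its genes have in common. The shares are therefore not those of the mature RNAs, and a low share does not show a low output of the pair. The Mir135a pair held 3.53% in pup 1 and 2.91% in pup 3. On average over the pups, the lowest shares were those of Mir30c-1 and Mir30c-2, at 0.308% and 0.470% in the same pups, and the highest those of Mir125b-1 and Mir125b-2, at 23.5% and 38.0%. The number of further genes ran from 1 to 7, the 2 miR-181 pairs have the same seed and count among each other's further genes, and Mirlet7c-2 is in 2 pairs, so the shares are given as values only.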
